A study of Mus musculus with 6 samples.

Results

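Open chromatin was compared between sorted cells of the interfollicular epidermis (IFE) and of the hair follicle (HF) in mouse back skin, from 2 peak lists of each. Peaks of these 4 lists sharing 1 bp or more were joined into 72676 regions. A region was counted as differing when both libraries of one population and neither of the other had a peak in it. This rule picked 18977 regions (26.1%), of which 7799 (10.7% of all regions) were open in IFE alone, called IFE-only, and 11178 (15.4%) in HF alone, called HF-only. The rule is the comparison itself, so these counts describe the 4 libraries and carry no test.

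All mice were C57BL/6 animals with the TNC-CREER and tdTomato alleles, in which a Cre recombinase driven from Tnc, the tenascin-C gene, switches on the red reporter after tamoxifen. They received 100 µg tamoxifen per g body weight on days 51 and 52 after birth and were taken on day 60. IFE cells were sorted as EPCAM+, α6-integrin+, SCA1+ and tdTomato−, and HF cells as EPCAM+, α6-integrin+, SCA1− and tdTomato−, with 50000 cells per library. Both populations therefore lack the reporter-positive touch dome cells, whose own 2 libraries, sorted with tdTomato+, were used here only as a separate readout. SCA1 is the surface protein that separated the populations, and neither gate selected cells by position. Each HF library can hold any SCA1− part of the follicle, and no finer compartment can be told apart. Each IFE library can likewise hold any SCA1+ cells of the follicle that passed its gate. Whether replicates 1 and 2 are separate animals is not stated in the labels, and their spread may be technical.

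The IFE is the stratified sheet between follicles: a basal layer attached to the basement membrane renews it, and cells leaving that layer build the water barrier. The hair follicle is an appendage that cycles between growth and rest; its bulge and outer root sheath hold stem cells kept by factors such as SOX9, LHX2, NFATC1 and TCF7L1, and Wnt, Hedgehog and BMP signals pace its cycle. ATAC-seq marks DNA that a transposase can reach, mostly promoters and enhancers, so a peak shows accessible DNA and not the amount of a transcript.

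The lists held 52219 and 51124 peaks in IFE replicates 1 and 2 and 54844 and 57131 in HF replicates 1 and 2. Called peaks covered 53.1, 49.8, 54.1 and 53.6 Mb in the same order. The lists give no read depth and no score, so where a peak is missing the site may still be open below the calling threshold. Similarity was measured as the Jaccard index, the bp covered in both of 2 libraries divided by the bp covered in either. It was 0.801 between the IFE libraries and 0.781 between the HF libraries, against 0.558 ± 0.0144 (SD, 4 pairs) between an IFE and an HF library. The within-population mean exceeded the between-population mean by 0.233. The two-sided exact permutation p was 0.333, the smallest that the 6 splits of 4 libraries allow, so no similarity test of this design can pass a 0.05 threshold. Within IFE 8375 regions (15.1% of those open in either library) were open in 1 library alone, and within HF 10272 (17.0%).

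The accessible landscape was mostly shared. All 4 libraries were open at 36242 regions (49.9%), against 18977 that differed. Only 1190 regions were open in 1 library of each population.

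**Figure D1:**
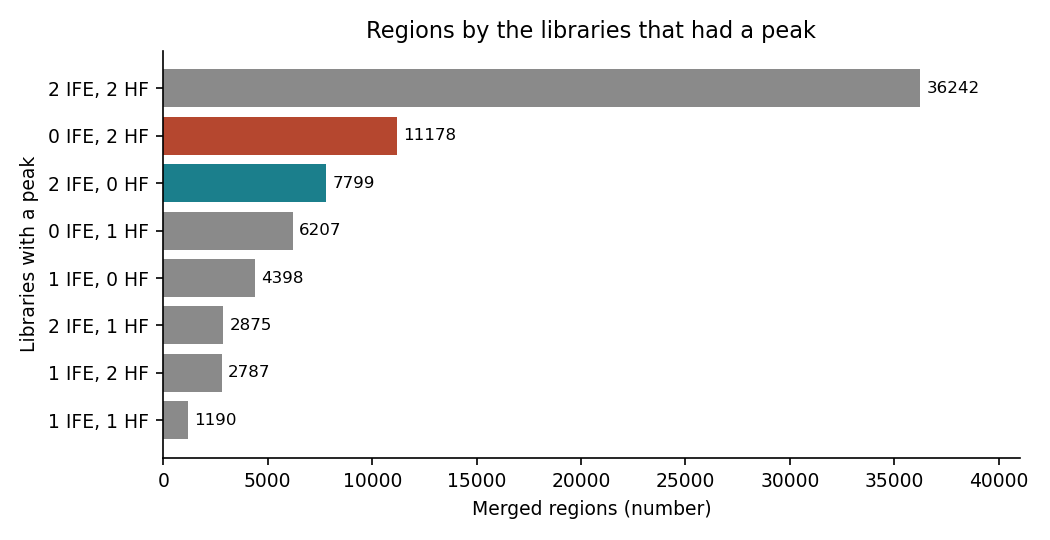
Number of merged regions (horizontal axis) for each combination of IFE and HF libraries with a peak (vertical axis), with IFE-only regions in blue-green, HF-only regions in red and all other patterns in grey. Regions open in all 4 libraries were the most frequent class (36242), followed by the HF-only class (11178) and the IFE-only class (7799).

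Differing regions were narrow and lay away from genes' ends. The median width was 704 bp for IFE-only and 758 bp for HF-only regions, against 1236 bp for regions open in all 4 libraries. A region joins the peaks of all its libraries, so the rule itself sets part of this difference. Regions open in 1 IFE or 1 HF library alone had medians of 393 and 408 bp. Those open in 2 libraries of one population and 1 of the other had 804 and 827 bp. Within 1 kb of an end of a protein-coding gene lay 4.87% (4.41 to 5.37) of IFE-only and 3.70% (3.36 to 4.07) of HF-only regions, against 31.1% of regions common to all libraries (exact 95% binomial intervals, which cover counting error alone). HF-only regions were farther from genes than IFE-only regions: the median distance to the nearest gene end was 41053 bp and 23741 bp. The share beyond 50 kb of any protein-coding gene was 28.0% for HF-only and 19.4% for IFE-only regions, and 12.1% for common regions. About equal shares lay inside a gene, 50.1% for IFE-only and 48.6% for HF-only regions, against 64.9% for common regions.

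**Figure D2:**
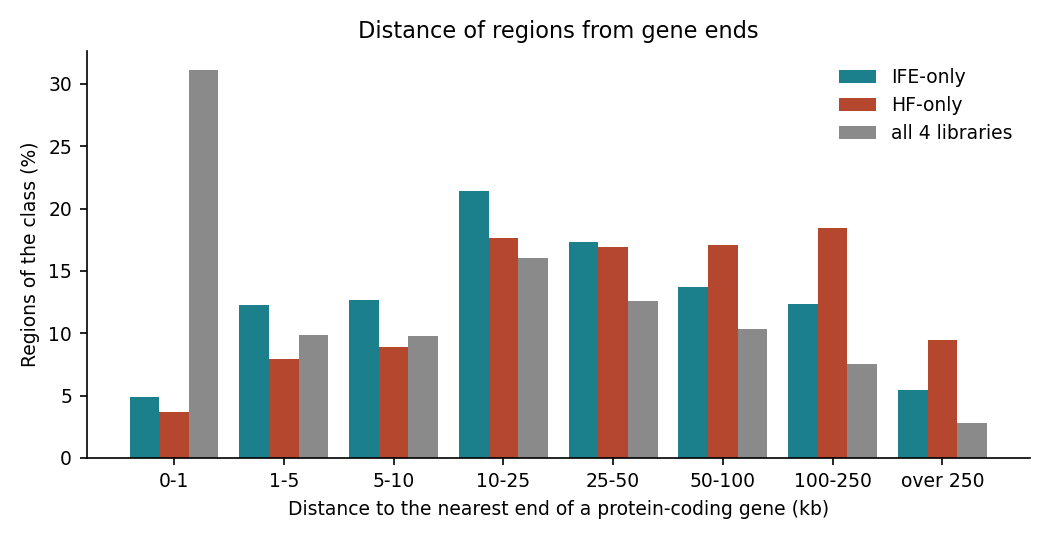
Share of each class of regions (vertical axis, %) by distance to the nearest end of a protein-coding gene (horizontal axis, kb); bars of a class add up to 100%. Common regions stood out within 1 kb (31.1%), and HF-only regions outnumbered IFE-only regions by share in each class beyond 50 kb.

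The touch dome libraries, which the rule did not use, were closer to IFE at these regions. Both touch dome libraries had a peak at 64.0% (62.9 to 65.0) of IFE-only regions and at 27.3% (26.5 to 28.2) of HF-only regions. Neither had one at 11.9% of IFE-only and 47.0% of HF-only regions. Touch dome replicate 1, the library with fewer called Mb (47.0 against 58.9), was open at 67.4% of IFE-only and 28.9% of HF-only regions, and replicate 2 at 84.7% and 51.4%. The order was the same in both libraries. Touch dome and IFE cells were both sorted as SCA1+ and HF cells as SCA1−, and the part of this gate in the order was not tested.

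Regions of one direction sat side by side along the chromosomes. Where the next differing region lay within 50 kb, it was also IFE-only after 64.1% of IFE-only regions and also HF-only after 75.9% of HF-only regions, while these classes made up 41.1% and 58.9% of all differing regions. The longest uninterrupted run, with no differing region of the other direction between, held 40 HF-only regions over 1280 kb on chromosome 2 (chr2:74372875-75652769, mm10). It took in the HoxD cluster, whose homeobox genes set position along body axes, and the stretch from Mtx2 to Hnrnpa3. Across the whole run, HoxD cluster included, IFE replicates 1 and 2 were open at 22 and 21 of 78 regions and HF replicates 1 and 2 at 72 and 65. Touch dome replicates 1 and 2 were open at 37 and 53 of them. The choice of the run nearly fixes the order of the IFE and HF counts, since 40 of its regions are HF-only by the rule. Within the run, 25 of the 40 regions lay more than 50 kb from a protein-coding gene, and Hoxd3 (3 regions) and Hoxd8 (2) held the most among the Hox genes.

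The longest IFE-only run held 21 regions over 522 kb on chromosome 14 (chr14:98999078-99520637), across Mzt1, Pibf1 and Klf5, the gene of a Krüppel-like factor of basal epithelium. IFE replicates 1 and 2 were open at 45 and 41 of its 46 regions and HF replicates 1 and 2 at 22 and 19. The choice of this run nearly fixes that order as well. Of the 21 regions, 10 were placed at Pibf1 and 4 at Klf5, 6 lay beyond 50 kb of a gene, and both touch dome libraries were open at 16. Other IFE-only runs held 18 regions at Slc24a3 and its neighbours (chr2:144376368-145393606) and 17 around Wnt3 and Nsf (chr11:103275830-104553443). The share of all differing regions that were HF-only ranged from 50.7% on chromosome 7 to 65.8% on chromosome 6.

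**Figure D3:**
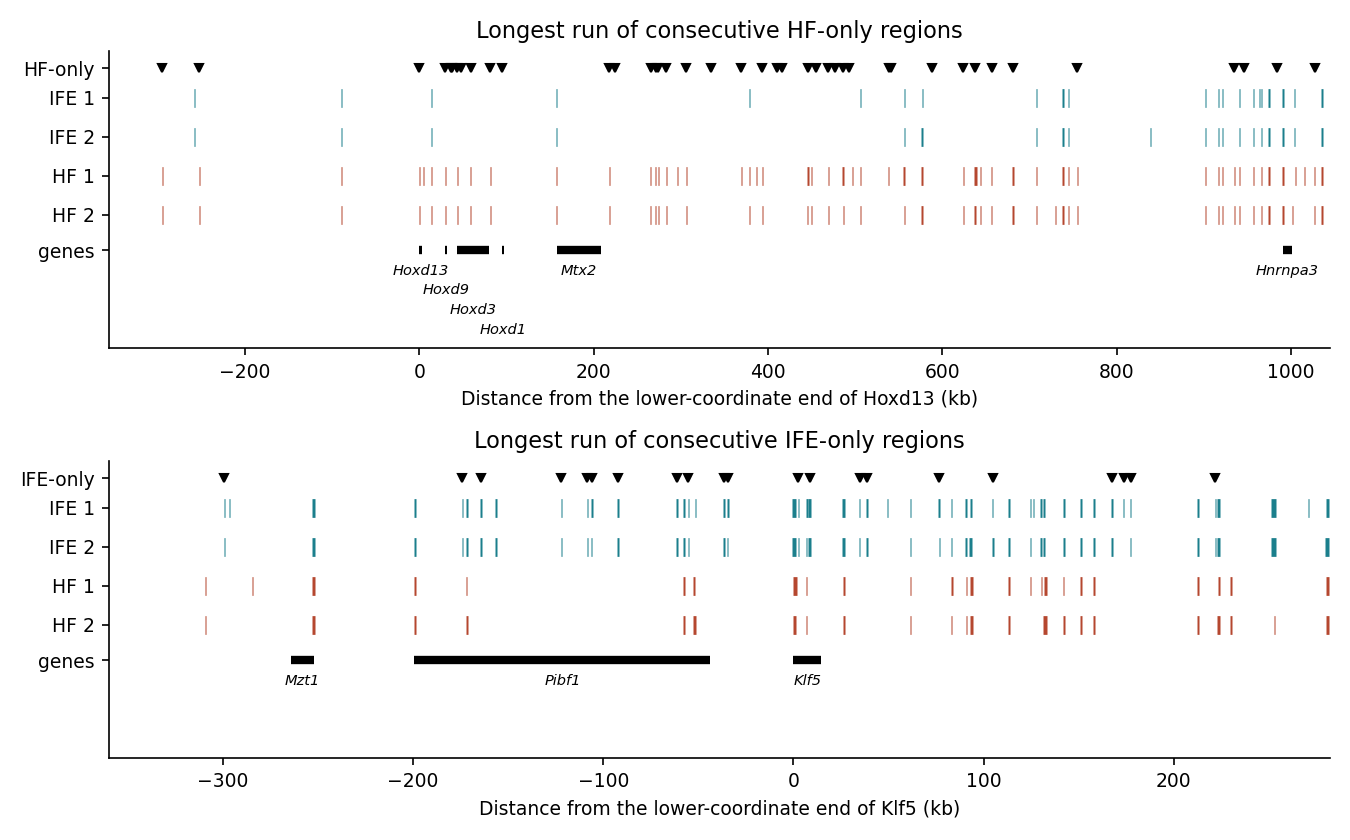
Called peaks of the 4 libraries (rows) along the longest HF-only run (upper panel, kb from Hoxd13) and the longest IFE-only run (lower panel, kb from Klf5), with black triangles above the differing regions and black bars for genes. Over the whole HF-only run the HF libraries were open at 72 and 65 of 78 regions and the IFE libraries at 22 and 21, and over the whole IFE-only run the IFE libraries were open at 45 and 41 of 46 and the HF libraries at 22 and 19. The choice of the runs nearly fixes both orders.

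Promoters under differing regions were a small group: 235 of 32851 promoter windows (RefSeq, GRCm38.p6, from 250 bases before to 50 after the gene start) overlapped an IFE-only region and 339 an HF-only region, against 13341 under a common region. The windows below are a selection of the start sites under a region open in one population. They are written 5′ to 3′ on the gene's strand, and capitals mark the letters of the motifs searched on both strands. Hoxd3, inside the HoxD run, Ror2, a receptor for WNT5A, and Cd34, the classical surface marker of bulge stem cells, lay under HF-only regions. Skint6, of a gene family known for its role in epidermal γδ T cells, Il33, an alarm cytokine of barrier cells, and Cd68, best known as a macrophage gene, lay under IFE-only regions. Cd34 falls outside the naming rule and was chosen after its values were seen. Genes named by the rule whose windows under HF-only regions are not printed include Cck, Col1a2, Col4a4, Dlx2, Dst and Fstl1. The keratin genes Krt14 and Krt2, outside the rule, each had 1 window under an HF-only region, which does not describe the rest of either gene.
Hoxd3, HF-only, chr2:74711743-74712042, plus strand: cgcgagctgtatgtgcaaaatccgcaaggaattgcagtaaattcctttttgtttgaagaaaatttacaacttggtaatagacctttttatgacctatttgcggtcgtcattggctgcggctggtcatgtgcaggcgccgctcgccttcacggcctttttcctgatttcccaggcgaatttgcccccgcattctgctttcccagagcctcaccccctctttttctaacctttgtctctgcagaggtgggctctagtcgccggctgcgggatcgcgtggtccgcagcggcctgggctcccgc
Cd34, HF-only, chr1:194938571-194938870, plus strand: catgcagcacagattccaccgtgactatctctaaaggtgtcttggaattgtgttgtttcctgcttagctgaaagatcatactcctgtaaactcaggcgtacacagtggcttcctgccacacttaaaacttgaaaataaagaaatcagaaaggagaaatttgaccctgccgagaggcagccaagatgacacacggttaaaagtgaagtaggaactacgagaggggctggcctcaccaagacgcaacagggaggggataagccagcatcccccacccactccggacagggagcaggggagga
Ror2, HF-only, chr13:53286075-53286374, minus strand: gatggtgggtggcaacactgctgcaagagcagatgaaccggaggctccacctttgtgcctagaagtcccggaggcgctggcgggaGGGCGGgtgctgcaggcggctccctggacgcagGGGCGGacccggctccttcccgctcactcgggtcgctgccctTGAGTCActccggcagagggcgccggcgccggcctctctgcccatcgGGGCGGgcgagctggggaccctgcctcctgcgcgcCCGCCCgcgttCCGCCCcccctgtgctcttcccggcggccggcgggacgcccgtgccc
Il33, IFE-only, chr19:29945540-29945839, plus strand: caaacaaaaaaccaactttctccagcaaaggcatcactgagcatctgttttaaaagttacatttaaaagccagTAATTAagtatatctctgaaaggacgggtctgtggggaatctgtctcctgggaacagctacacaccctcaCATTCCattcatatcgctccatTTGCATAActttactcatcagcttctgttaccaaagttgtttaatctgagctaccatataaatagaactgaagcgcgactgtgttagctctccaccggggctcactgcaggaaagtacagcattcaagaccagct
Skint6, IFE-only, chr4:113286924-113287223, minus strand: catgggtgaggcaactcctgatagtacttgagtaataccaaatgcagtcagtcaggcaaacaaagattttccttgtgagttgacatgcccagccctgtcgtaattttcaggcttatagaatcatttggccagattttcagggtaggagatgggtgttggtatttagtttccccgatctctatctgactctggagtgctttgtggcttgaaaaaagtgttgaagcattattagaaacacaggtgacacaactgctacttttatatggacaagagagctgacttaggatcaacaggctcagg
Cd68, IFE-only, chr11:69666121-69666420, minus strand: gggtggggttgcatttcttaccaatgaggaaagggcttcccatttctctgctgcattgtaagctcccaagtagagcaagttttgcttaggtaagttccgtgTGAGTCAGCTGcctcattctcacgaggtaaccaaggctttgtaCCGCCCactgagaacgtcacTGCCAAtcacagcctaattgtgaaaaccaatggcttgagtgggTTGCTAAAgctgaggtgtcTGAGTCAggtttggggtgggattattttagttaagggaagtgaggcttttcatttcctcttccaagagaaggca

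The region over the Hoxd3 window covered 1163 and 1298 bp of called peak in HF replicates 1 and 2 and 0 in both IFE libraries. The Cd34 region covered 1490 and 1295 bp in the HF libraries, and the Ror2 region 809 and 1091 bp. In the IFE libraries the Il33 region covered 1375 and 757 bp, the Skint6 region 1331 and 934 bp and the Cd68 region 307 and 308 bp. The Hoxd3, Cd34 and Skint6 windows held none of the letters searched. The Cd68 window held the AP-1 letters TGANTCA at positions -149 and -24 from its start, the first overlapping an E-box (CAGCTG). The Ror2 window held TGANTCA at position -90 and the KLF/SP letters CCGCCC at 5 places. The Il33 window held the LHX homeodomain letters TAATTA, the CEBP letters TTGCNNAA and the TEAD letters GGAATG. GC content was 54.0% for Hoxd3, 50.0% for Cd34, 74.7% for Ror2, 42.3% for Il33, 43.0% for Skint6 and 47.7% for Cd68.

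AP-1 factors (FOS and JUN dimers) act widely in keratinocytes. The letters TGANTCA stood in 21.3% (16.2 to 27.1) of windows under IFE-only regions, in 12.1% (8.82 to 16.0) under HF-only regions, in 5.19% under common regions and in 7.81% of all windows. The TCF/LEF letters CTTTGAA, read by nuclear partners of β-catenin, stood in 9.79% (6.31 to 14.3) under IFE-only and 3.24% (1.63 to 5.73) under HF-only regions, against 5.14% of all windows. The grainyhead letters AACCNGTT stood in 4.68%, 1.47% and 2.09%, and the GATA letters AGATAA in 15.7%, 8.55% and 11.2%, in the same order. TEAD letters stood in 13.6% under IFE-only and 20.1% under HF-only regions, against 14.7% of all windows. Both differing classes held the KLF/SP letters less often than common windows (26.4% and 31.0% against 65.9%). Median GC was 50.7% under IFE-only, 52.7% under HF-only and 61.7% under common regions. Of the 16 motifs searched, AP-1 and TCF/LEF were those whose 95% intervals did not meet between the differing classes. These are matches of letters in short windows, not measured binding, and windows of one gene can overlap.

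To read regions by gene, each was given to the nearest protein-coding gene within 50 kb. This placed 60500 regions at 15381 genes, of which 6289 (10.4%) were IFE-only and 8052 (13.3%) HF-only. More IFE-only than HF-only regions stood at 2838 genes (18.5%), and the reverse at 3188 (20.7%). When each library was cut to the same number of its widest peaks, this majority turned: 7319 regions at genes were then IFE-only and 6562 HF-only. Gene groups are read below against both of the shares over all genes.

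A fit across genes used the length of called peaks per gene in each library, log2(kb + 1), in limma with Benjamini-Hochberg adjustment over 6981 genes with at least 3 regions. Called length was greater in IFE at 1196 genes (17.1%) and in HF at 1336 (19.1%) at an adjusted p under 0.05. The counts dropped when a library was left out, to 126 and 315 without HF replicate 1, 171 and 348 without HF replicate 2, 185 and 518 without IFE replicate 1 and 463 and 629 without IFE replicate 2. In each of these 4 fits 82 IFE and 236 HF calls passed, and 0 of the 2532 calls changed direction. Genes that passed all 4 are described below as passing without any 1 library. They were 35 of the 128 named genes that were called, and 35 others of the 128 passed in none of the 4. Log2 differences are positive where called length was greater in IFE and negative where it was greater in HF. Genes picked for their differing regions had peaks of different length by construction, so their adjusted p-values are not a second line of evidence. They rest on 2 libraries of each population, whose spread may be technical.

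The gene with the largest excess of HF-only regions was Hmcn1 (chr1:150562500-150993652), which encodes the extracellular matrix protein hemicentin-1. It had 8 and 8 open regions in the IFE libraries and 31 and 30 in the HF libraries, of 33. No region there was IFE-only and 20 were HF-only, and called length differed by -1.58 ± 0.08 (log2, SE; limma adjusted p = 0.000492). Bnc2, a zinc-finger factor gene on chromosome 4, had 17 and 18 open regions in IFE and 40 and 40 in HF, with 1 IFE-only and 20 HF-only. Its called length differed by -1.17 ± 0.08 (limma adjusted p = 0.000774). Both genes passed without any 1 library. The numbers of open regions did not overlap between the populations at either gene, which the choice of genes with many HF-only regions nearly fixes; over all 15381 genes HF was higher without overlap at 17.2% and IFE at 14.8%.

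Dpyd (chr3:118562109-119432924), encoding the first enzyme of pyrimidine breakdown, had the largest difference in called length toward HF. It covered 0.802 and 0.927 kb in the IFE libraries and 17.2 and 16.4 kb in the HF libraries, a log2 difference of -3.26 ± 0.09 (limma adjusted p = 0.000257). Next came Ebf1, an early B-cell and mesenchymal transcription factor gene (0.365 and 0.317 kb in IFE, 11.7 and 9.98 kb in HF). Cntn5, a neural adhesion gene, covered 0.347 and 0.493 kb in IFE and 11.3 and 11.2 kb in HF. Svep1, a matrix protein gene, had no peak in either IFE library and 6 open regions in both HF libraries. Kirrel, an adhesion gene, covered 0.901 and 0.63 kb in IFE and 11.4 and 11.4 kb in HF. Each of these 5 genes passed without any 1 library.

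Other genes with the most HF-only regions were App, the amyloid precursor protein gene (0 IFE-only, 15 HF-only), Atp8a2, a lipid flippase gene (1 and 17), Ext1, a heparan sulfate polymerase gene (0 and 14), and Adgrl3, an adhesion receptor gene (0 and 14). Palld, of the actin-binding palladin, had 4 IFE-only and 18 HF-only regions, and Tenm2, of a teneurin, 3 and 17. Slc14a2, of a urea transporter, and Dennd1a, of a vesicle traffic regulator, each had 0 and 13. Of these 8, called length passed without any 1 library at App, Atp8a2, Adgrl3, Slc14a2 and Dennd1a, but at Ext1 in 3, Palld in 2 and Tenm2 in 1 of the 4 fits. All of these last calls were lost without HF replicate 1, with limma adjusted p of 0.0586, 0.0823 and 0.0846.

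**Figure D4:**
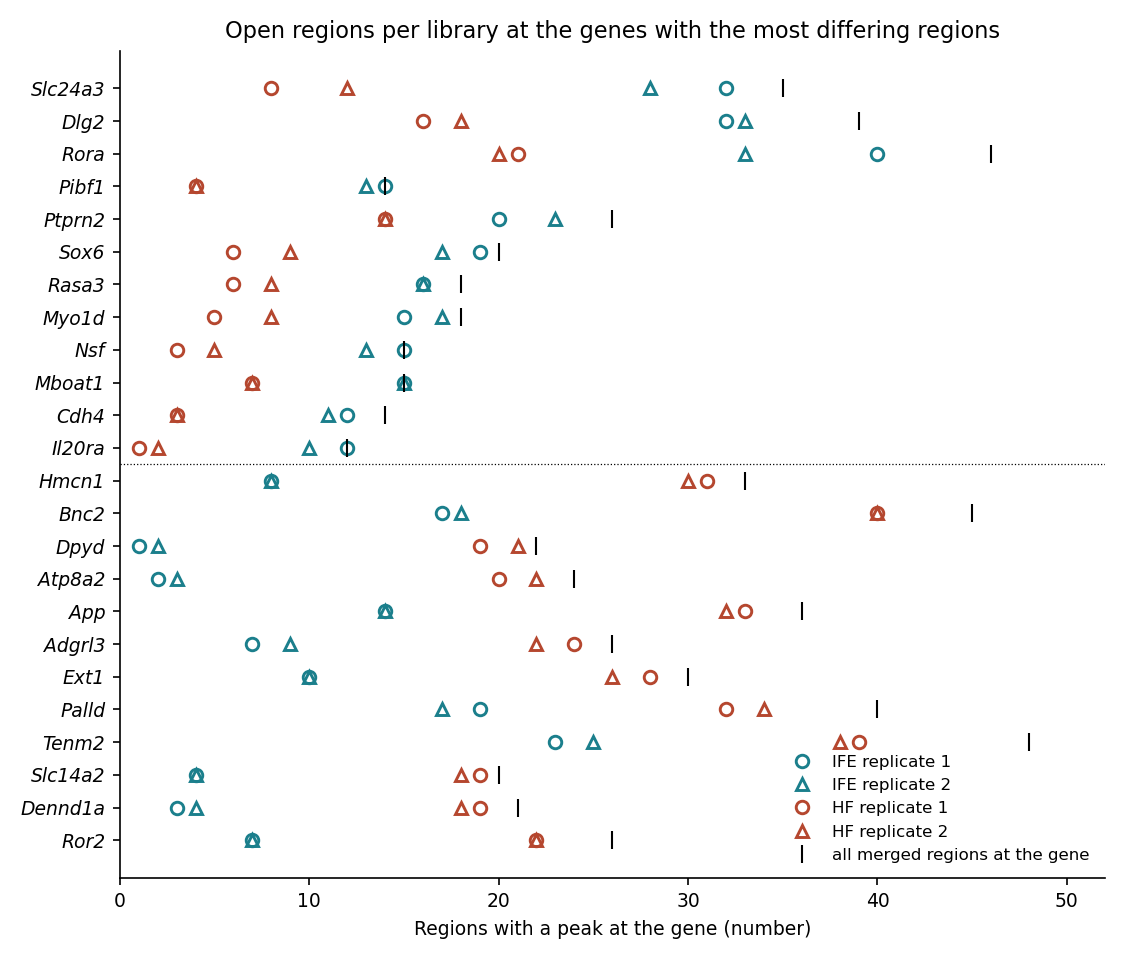
Number of regions with a peak (horizontal axis) in each library at the 12 genes with the largest excess of IFE-only regions (above the dotted line) and of HF-only regions (below it); circles are replicate 1, triangles replicate 2, and ticks all merged regions at the gene. IFE libraries lie to the right at the upper genes and HF libraries at the lower ones, an order that the choice of these genes nearly fixes; over all genes it held without overlap at 14.8% toward IFE and 17.2% toward HF.

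Genes of hair follicle stem cells and the outer root sheath leaned to HF. Over the 36 genes, 20 of 505 regions were IFE-only (3.96%, against 10.4% over all genes) and 126 HF-only (25%, against 13.3%). HF-only regions were in excess at 22 genes and IFE-only regions at 2. Of 32 genes tested in limma, 20 had longer called peaks in HF and 0 in IFE (21 and 0 at an unadjusted p under 0.05), and the median log2 difference was -0.49, against 0.02 over all genes. Over all genes tested, here and for each list below, 17.1% were longer in IFE and 19.1% in HF. Few of these calls held without 1 library: 1 of the 20 passed in all 4 such fits and 9 passed in none. The direction of the list was known from earlier results of these data.

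Lgr5 (chr10:115450314-115587780), an R-spondin receptor that marks cycling follicle stem cells, had 4 and 4 open regions in IFE and 12 and 14 in HF. Called length there differed by -1.66 ± 0.12 (limma adjusted p = 0.000797), and the call was lost without HF replicate 1 (adjusted p = 0.0521). Postn, of the matrix protein periostin, was open at 1 region in each IFE library and 9 in each HF library. Runx1, a transcription factor gene of follicle stem cell activation, was open at 15 and 16 regions in IFE and 25 and 25 in HF. Nfib, of a nuclear factor of bulge stem cells, was open at 32 and 31 regions in IFE and 49 and 43 in HF. Its call was lost in all 4 fits that left out a library (limma adjusted p up to 0.170, without HF replicate 1), although none of its differing regions was IFE-only and 11 were HF-only.

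Several stem cell genes outside the naming rule were looked at after their values were seen. Lhx2 had 0 IFE-only and 6 HF-only regions, and Cd34 0 and 4. Sox9, in contrast, had 0 and 1, with a log2 difference of -0.24 that missed the threshold (limma adjusted p = 0.0757). Krt15 and Nfatc1 had no or nearly even differing regions (0 and 0, and 4 and 5).

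Hedgehog signalling, which drives follicle growth, also leaned to HF. Of 166 regions at 21 genes, 10 (6.02%) were IFE-only and 40 (24.1%) HF-only. The co-receptor gene Boc had 1 and 6, and Gli2, of the main activating transcription factor, 1 and 5. The ligand-processing genes Hhat and Disp1 had 2 and 6, and 0 and 4. At Gli2, IFE replicates 1 and 2 were open at 15 and 13 regions and HF replicates at 22 and 20. Of 16 genes tested in limma, 5 had longer called peaks in HF and 0 in IFE (7 and 1 at an unadjusted p under 0.05). Boc, Gli2 and Hhat were among the 5. Boc lost its call without IFE replicate 1 and without HF replicate 1 (adjusted p = 0.0561 and 0.0527), and Gli2 without HF replicate 1 and without HF replicate 2 (0.0590 and 0.0507). Hhat lost it in all 4 fits that left out a library (adjusted p from 0.0694 to 0.149), and 1 of the 5 passed without any 1 library. Disp1 covered 10.1 and 9.4 kb in IFE and 10.3 and 11 kb in HF and was not called (limma adjusted p = 0.30). Gli3, a mostly repressing GLI factor, had 4 IFE-only and 3 HF-only regions.

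Wnt pathway genes split by member. Over the list, 50 of 548 regions (9.12%) were IFE-only and 103 (18.8%) HF-only, and of 51 genes tested 6 had longer called peaks in IFE and 18 in HF. In all 4 fits that left out a library, 1 of the 6 and 1 of the 18 passed. On the HF side, the receptor gene Ror2, whose promoter is shown above, had 7 and 7 open regions in IFE and 22 and 22 in HF, and passed without any 1 library. Lgr4, a second R-spondin receptor, had 0 IFE-only and 5 HF-only regions, and Tcf7l2, a nuclear effector, 3 and 9. On the IFE side, the ligand gene Wnt3 (chr11:103774175-103818021) was open at 5 and 5 regions in IFE and 2 and 1 in HF, a log2 difference of 1.66 ± 0.17 (limma adjusted p = 0.00193, and 0.0579 without IFE replicate 1). Wnt5a, another ligand gene (chr14:28504543-28527448), was open at 6 and 6 in IFE and 3 and 3 in HF, a difference of 1.01 ± 0.10 (limma adjusted p = 0.00175), and passed without any 1 library. The receptor genes Ryk and Fzd10 were also on the IFE side, with 3 IFE-only and 0 HF-only regions at Ryk and 2 and 0 at Fzd10.

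Matrix genes leaned to HF. Collagen genes had 17 IFE-only (7.59%) and 67 HF-only (29.9%) of 224 regions. Of 25 tested, 3 had longer called peaks in IFE and 11 in HF, of which 0 and 4 passed without any 1 library. Col24a1, of a fibrillar collagen, was open at 1 region in each IFE library and 10 in each HF library. Col4a4, of a basement membrane chain, was open at 2 and 2 in IFE and 7 and 7 in HF, and both genes passed without any 1 library. Col14a1 covered 0 and 1.29 kb in IFE and 8.08 and 8.63 kb in HF. Col23a1, of a transmembrane collagen, went the other way, with 12 and 11 open regions in IFE and 7 and 7 in HF. The fibroblast markers, whose collagen members are also on the collagen list, had 5 IFE-only (10.2%) and 11 HF-only (22.4%) of 49 regions. Summed over the markers, 30 and 27 regions were open in the IFE libraries and 37 and 36 in the HF libraries. Of these markers Col1a2 and Twist2 had no peak in either IFE library, and Prrx1 had none in either HF library. Both gates required EPCAM, an epithelial protein that fibroblasts lack, and whether fibroblasts that escaped the gate take part in the collagen difference was not tested.

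Axon guidance and neurotrophin genes had 56 IFE-only (9.67%) and 119 HF-only (20.6%) of 579 regions. Of 52 tested, 7 had longer called peaks in IFE and 21 in HF, of which 0 and 5 passed without any 1 library. Sema3e, of a repelling semaphorin, was open at 6 and 8 regions in IFE and 22 and 19 in HF, and Gfra1, of the GDNF co-receptor, at 8 and 8 and at 21 and 18. Robo1, of a Slit receptor, had 6 IFE-only and 2 HF-only regions, while the ligand gene Slit3 had 4 and 11. Hox genes had 2 IFE-only (2.33%) and 20 HF-only (23.3%) of 86 regions. Part of the 20 lay in the HoxD run described above, with 3 at Hoxd3 and 2 at Hoxd8. Of 11 tested in limma, 1 had longer called peaks in IFE and 3 in HF. The median log2 difference was -0.04, against 0.02 over all genes. Hoxd3 had no peak in either IFE library and 4 and 3 open regions in HF, and Hoxc13, a hair shaft regulator, was open at 1 region in each IFE library and 3 in each HF library.

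BMP and TGF-beta genes had 34 IFE-only (8.92%) and 61 HF-only (16.0%) of 381 regions. Of 41 tested in limma, 6 had longer called peaks in IFE and 11 in HF. Named members went both ways. Ltbp1, a binder of latent TGF-beta, had 0 and 9, Bmp6 0 and 6, and Fstl1, a secreted follistatin-like protein, 0 and 5. The signal transducers Smad2 and Smad3 had 4 and 0 and 3 and 0. The limma call at each of these genes was lost in some or all of the fits that left out a library. With libraries cut to one number of widest peaks the list's balance turned to 44 IFE-only and 43 HF-only. Sebaceous gland genes had 7 IFE-only (5.38%) and 22 HF-only (16.9%) of 130 regions, with Plin2, a lipid droplet coat gene, at 0 and 3. Plin2 was not called (limma adjusted p = 0.0695). Notch genes had 8 IFE-only (4.47%) and 21 HF-only (11.7%) of 179 regions, both below the shares over all genes (10.4% and 13.3%). Of 20 tested in limma, 2 had longer called peaks in IFE and 4 in HF. The co-activator Maml2 had 0 and 8 regions, and the receptor genes Notch1 and Notch2 had 1 and 0 and 2 and 1. FGF and EGF family genes had 32 (10.5%) and 47 (15.5%) of 304 regions, near the shares over all genes. Among them Btc had 0 and 3 and Nrg1, of a neuregulin, 8 and 3.

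Fewer genes stood on the IFE side alone. Of 15381 genes with regions, 30 had at least 5 IFE-only and no HF-only regions, and 124 the reverse. HF-only regions at genes were also more numerous (8052 against 6289). That majority turned with equal numbers of widest peaks, where the 30 and 124 were not recounted. Slc24a3 (chr2:145167775-145642166), a sodium, potassium and calcium exchanger gene, had the most, with 18 IFE-only regions and 1 HF-only. It was open at 32 and 28 regions in IFE and 8 and 12 in HF, a log2 difference of 1.38 ± 0.12 (limma adjusted p = 0.00122), and passed without any 1 library. Dlg2, of a synaptic scaffold protein, had 16 IFE-only and 3 HF-only regions. Rora, of a nuclear receptor linked to keratinocyte differentiation, had 14 and 4 and was open at 40 and 33 regions in IFE and 21 and 20 in HF. Pibf1, in the run described above, had 10 and 0. At these 4 genes, as their choice nearly fixes, both IFE libraries had more open regions than both HF libraries. The limma calls at Dlg2, Rora and Pibf1 were lost in some of the fits that left out a library.

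The largest differences in called length toward IFE were at Tmem45a2 (5.23 and 4.97 kb in IFE, no peak in HF; log2 difference 2.61), Il20ra (2.51), Skint6 (2.49), Insc (2.41) and Gm5127 (2.38). Il20ra (chr10:19711673-19760053), a receptor chain for the epidermal cytokines IL-20 and IL-24, was open at 12 and 10 regions in IFE and 1 and 2 in HF (limma adjusted p = 0.000622). Skint6 (chr4:112804616-113286973), whose promoter is shown above, was open at 8 and 7 regions in IFE and 0 and 1 in HF (limma adjusted p = 0.00102). Insc, of the adaptor inscuteable that orients divisions in the basal layer, was open at 7 and 6 in IFE and none in HF. Of these 5, Gm5127 alone lost its call when a library was left out, with limma adjusted p of 0.0797 without IFE replicate 1 and 0.0642 without IFE replicate 2.

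Further genes with many IFE-only and no HF-only regions were Sox6, Rasa3, Myo1d, Nsf, Mboat1 and Ptprn2, with 8 each. Sox6 was open at 19 and 17 regions in IFE and 6 and 9 in HF. Nsf, a vesicle fusion gene next to Wnt3, was open at 15 and 13 in IFE and 3 and 5 in HF. Ptprn2 differed least in called length (0.37 ± 0.07, limma adjusted p = 0.013), and with the wider 50% of peaks alone it had 2 IFE-only and 3 HF-only regions. Cdh4, of R-cadherin, had 10 and 2.

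Cytokine and chemokine genes of the epidermis leaned to IFE. They had 39 IFE-only (18.5%, against 10.4% over all genes) and 17 HF-only (8.06%, against 13.3%) of 211 regions, and IFE-only regions were in excess at 16 genes and HF-only regions at 8. Of 24 tested, 10 had longer called peaks in IFE and 3 in HF, against 17.1% and 19.1% over all genes. In all 4 fits that left out a library, 2 of the 10 and 0 of the 3 passed. Il6ra, of the IL-6 receptor, was open at 8 and 8 regions in IFE and 5 and 4 in HF, and passed without any 1 library (difference 0.98 ± 0.08, limma adjusted p = 0.00109). Csf2, the gene of GM-CSF, was open at 5 and 5 regions in IFE and 1 and 2 in HF, and Il33 at 8 and 8 and at 5 and 6. Csf2 passed in 2 of those 4 fits and Il33 in 1, that without IFE replicate 2. Lifr, of the LIF receptor, had 1 IFE-only and 4 HF-only regions.

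Antigen presentation and interferon genes had 14 IFE-only (11.9%) and 6 HF-only (5.08%) of 118 regions, an IFE share near that of all genes and an HF share below it. Of 18 tested in limma, 7 had longer called peaks in IFE and 0 in HF (8 and 0 at an unadjusted p under 0.05), against 17.1% and 19.1% over all genes. None of the 7 passed in all 4 fits that left out a library. Ifngr1, of an interferon-γ receptor chain, was open at 4 and 4 regions in IFE and 2 and 1 in HF. Irf1, an interferon-response factor gene, was open at 11 and 10 and at 8 and 8, and Nlrc5, the MHC class I activator gene, at 7 and 6 and at 5 and 5. These 3 genes each passed in 1 of the 4 fits, Ifngr1 without HF replicate 1 and Irf1 and Nlrc5 without IFE replicate 2. Immune cell markers, beside these lists, had 13 regions at 7 of 14 genes, with 4 IFE-only (30.8%) and 2 HF-only (15.4%). Summed over the markers, 10 and 8 regions were open in IFE and 8 and 9 in HF. Cd3e, Cd52 and Cd68 each had 1 region, open in both IFE libraries alone, while Laptm5 had no peak in IFE and 2 and 3 open regions in HF. The part of immune cells in the cytokine and antigen presentation values was not tested.

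**Figure D5:**
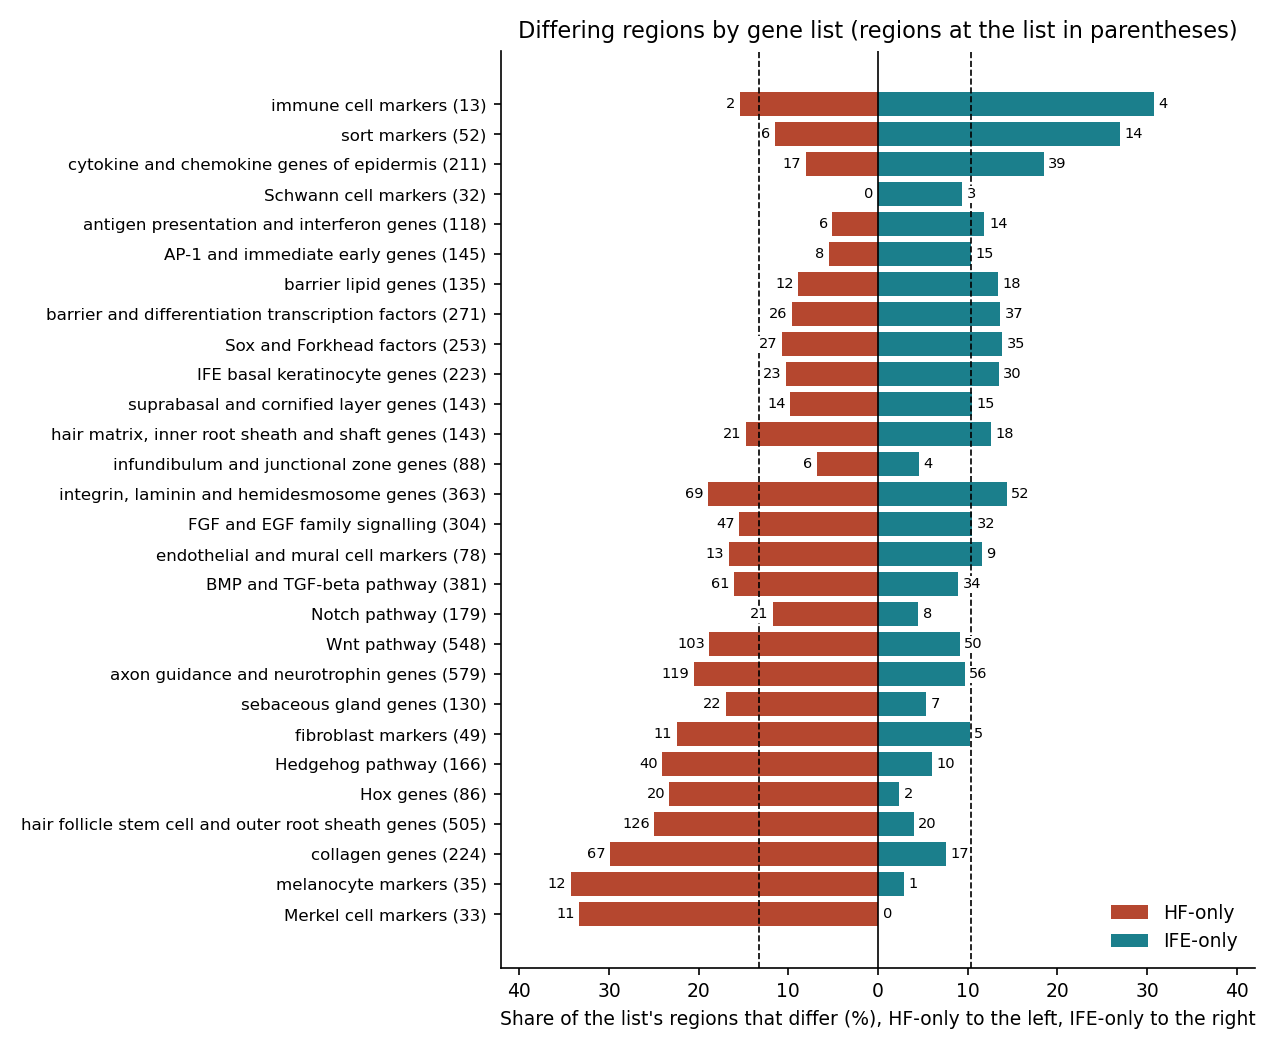
Share of each gene list's regions that were HF-only (red, to the left) or IFE-only (blue-green, to the right), in %, with the number of such regions at the bar ends and all regions of the list in parentheses; dashed lines mark the shares over all genes, 13.3% and 10.4%. Follicle stem cell, collagen, Hedgehog and Hox lists lie beyond the HF line and short of the IFE line, and the cytokine list the reverse.

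Genes of IFE basal keratinocytes had 30 IFE-only (13.5%) and 23 HF-only (10.3%) of 223 regions, and 4 of 19 tested had longer called peaks in IFE and 2 in HF, against 17.1% and 19.1% over all genes. Itga6, of the α6-integrin on which both populations were sorted, was open at 20 and 16 regions in IFE and 9 and 9 in HF. Klf5 was open at 9 and 8 regions in IFE and 4 and 4 in HF (difference 0.77 ± 0.11, limma adjusted p = 0.00536), a call lost in each of the 4 fits that left out a library (adjusted p from 0.0527, without IFE replicate 2, to 0.0785, without IFE replicate 1). Dst, of the hemidesmosome linker dystonin, went the other way, with 3 IFE-only and 10 HF-only regions. Integrin, laminin and hemidesmosome genes as a list had 52 (14.3%) and 69 (19.0%) of 363 regions, with Lamc1, of a laminin chain, at 5 and 0.

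Suprabasal and cornified layer genes had 15 IFE-only (10.5%) and 14 HF-only (9.79%) of 143 regions, both near or below the shares of all genes. Tgm3 (chr2:129987794-130050399), of a transglutaminase that crosslinks the cornified envelope, was open at 14 and 14 regions in IFE and 7 and 8 in HF. Its called length differed by 1.16 ± 0.10 (limma adjusted p = 0.00112) and passed without any 1 library. Lor and Hrnr, of the cornified envelope proteins loricrin and hornerin, had 0 and 2 and 1 and 3. Barrier and differentiation transcription factors had 37 IFE-only (13.7%) and 26 HF-only (9.59%) of 271 regions. Grhl3, needed for the epidermal barrier, was open at 15 and 13 regions in IFE and 9 and 8 in HF, whereas Prdm1 had 1 IFE-only and 8 HF-only regions. Barrier lipid genes had 18 (13.3%) and 12 (8.89%) of 135 regions, with Ugcg, of the glucosylceramide synthase, at 3 and 0.

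AP-1 and immediate early genes had 15 IFE-only (10.3%) and 8 HF-only (5.52%) of 145 regions. Called length was greater in IFE at 1 of 19 tested and in HF at 1. Fos was open at 13 and 12 regions in IFE and 11 and 9 in HF, and Jun at 7 and 8 and at 7 and 6, and neither was called (limma adjusted p = 0.118 and 0.0891). Sox and Forkhead genes had 35 (13.8%) and 27 (10.7%) of 253 regions, with Foxn3 at 7 and 2 and Foxp1 at 4 and 7. Hair matrix, inner root sheath and shaft genes, of the growing hair, had 18 (12.6%) and 21 (14.7%) of 143 regions, near the shares of all genes. Cux1 had 7 and 2 there. Infundibulum and junctional zone genes of the upper follicle had 4 (4.55%) and 6 (6.82%) of 88 regions, below the shares of all genes. In which gate cells of the upper follicle fell was not tested.

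The sort markers served as a check of the labels. Ly6a (chr15:74994877-74998031), which encodes SCA1, was open at 5 and 5 regions in the IFE libraries and 2 and 2 in the HF libraries, with 3 IFE-only regions. Called length was 5.94 and 5.08 kb in IFE and 1.15 and 1.23 kb in HF, a log2 difference of 1.57 ± 0.11 (limma adjusted p = 0.000774), and passed without any 1 library. The gate chose the cells by this protein, so the difference is no finding. Epcam, present in both gates, had no differing region and was open at 7 and 6 and at 7 and 7 regions. Itga6, whose protein was also required in both gates, did differ, with 8 IFE-only and 1 HF-only regions. Its called length was greater in IFE (difference 0.88, limma adjusted p = 0.00712). Unlike the call at Ly6a, that at Itga6 was lost in some of the fits that left out a library. Tnc, which drives the Cre, had 3 IFE-only and 5 HF-only regions, and called length did not pass the threshold (difference -0.16, limma adjusted p = 0.245).

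Markers of cells that a skin sort can carry along moved with the HF side in part. Merkel cell markers had 0 IFE-only and 11 HF-only (33.3%) of 33 regions, summed over 13 of 14 genes. Regions open were 19 and 14 in IFE and 24 and 29 in HF. The 11 regions stood at 3 genes: Piezo2, the touch channel gene (4), Rab3c, of a vesicle GTPase (4), and Cck, of a peptide hormone (3). Atoh1 and Krt20, which define Merkel cells, each had 1 region, open in IFE replicate 1 and in neither HF library. Melanocyte markers had 1 IFE-only (2.86%) and 12 HF-only (34.3%) of 35 regions, with 19 and 19 open in IFE and 28 and 29 in HF. Mitf, the melanocyte master factor gene, held 8 of them, Oca2 held 2, and Dct and Ednrb held 1 each, while Sox10 was open at 2 and 2 regions in IFE and 1 and 1 in HF.

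Endothelial and mural cell markers had 9 IFE-only and 13 HF-only of 78 regions, with Erg at 1 and 9 and Flt1 at 2 and 0. Schwann cell markers had 3 IFE-only (9.38%) and 0 HF-only of 32 regions. Fewer cells of a type in the sort and fewer open sites per cell cannot be told apart in these libraries of many cells. Whether such cells take part in the follicle values was not tested.

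Regions open in all 4 libraries were also compared by how much of each was covered by called peaks. Both IFE libraries had longer coverage than both HF libraries at 13274 regions (36.6%), and both HF libraries had longer coverage at 8659 (23.9%). Limma called 1446 (3.99%) as longer in IFE and 1132 (3.12%) as longer in HF at an adjusted p under 0.05. These calls did not hold: limma called 0 in either direction when any 1 library was left out, and 0 with all 4 libraries and the replicate number as a block (6052 and 4127 at an unadjusted p under 0.05). At an unadjusted p under 0.05 the fits without 1 library held 3233 to 5970 regions longer in IFE and 2634 to 3964 longer in HF, against 6034 and 4022 with all libraries.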

How the data were processed

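ATAC-seq was measured in 6 libraries, of which 4 were compared. The submitters' processing notes name MACS2 2.2.7.1, Bowtie2 2.4.5, Trim Galore 0.6.7, SAMtools 1.9 and genome build mm10. The sources used here do not give their settings, the peak threshold or whether reads were shifted to the transposase's cut. The deposited lists hold positions and names of peaks, called per library, with no score, so depth is unknown. A deeper library can gain weak peaks.

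Genes and promoter windows came from RefSeq tables of GRCm38.p6, the assembly of mm10. Regions went to the closest span among 21887 protein-coding genes, up to 50 kb away. The gene table gives no strand, so distance was taken to either gene end in place of the planned gene start. Windows were found for 17492 of these genes (79.9%), and 763 of 770 list entries matched. Called length was tested in limma 3.58.1 (R 4.3.3) with trended spread and a pseudocount of 1 kb, not the authors' normalization. On simulated data with 200 changed genes this fit recovered 87.2% of those with a 2-fold and 50.2% of those with a 1.5-fold difference, with 2.2 false calls on average among 6981 genes. For common regions it recovered 25.0% at 2-fold and 59.3% at 4-fold among 36242 regions. Both simulations drew residuals independently for each feature and library from the replicate differences, whose spread may be technical. Far fewer genes were changed than the 2532 called in the data, so the false calls are no error rate for those. The region builder was checked on simulated peaks, with 0 of 2688 library states wrong.

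Named in each direction were the 12 genes with the greatest excess of differing regions, the 5 limma calls of largest log2 difference and up to 4 members per list, besides the sort markers. Members, lists and the rule were chosen with earlier results of these data known. Picked outside it, once values were known, were Cd34, Lhx2, Sox9, Krt15, Nfatc1, Atoh1, Krt20, Hoxd8 and Hnrnpa3 with the neighbours named in runs. Krt14 and Krt2 were picked outside it too. The 22 pathway and 6 marker lists are described by counts, with no test of their own. Alternatives changed the merging, the peaks used, the gene window, the pseudocount, the filter and the libraries.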

Additional observations from a re-analysis of the deposited data

How the results depend on the processing

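Leaving out 1 library in turn gave 9049 to 10984 IFE-only and 12336 to 15201 HF-only regions, since 1 library then stands for its population. The wider 50% of peaks gave 3451 and 5077. Other settings stayed within 1.5 times, the nearest to even being equal numbers of the widest peaks, at 9017 and 9197. There the IFE-only share of differing regions at genes turned from 43.9% to 52.7%, and at BMP and TGF-beta genes from 35.8% to 50.6%. With the wider 50% of peaks Ptprn2 turned to 40% IFE-only. In the settings run, no other list or named gene whose counting interval lay to one side of 50% crossed it, and the IFE-only share left its counting interval for 9 list values and 63 gene values while 297 and 1256 stayed in it. Lists nearer to even crossed 50% in at least 1 setting: hair matrix, integrin, FGF and EGF, Sox and Forkhead, infundibulum, suprabasal, fibroblast and endothelial genes. Limma calls by gene fell to between 126 and 463 (IFE) and between 315 and 629 (HF) without 1 library, the lone sample being assumed to vary like the other population, and to 796 (IFE) with the number of open regions in place of length. With every gene of at least 1 region they were 1602 and 1744. Common-region calls were also lost without any 1 library, and the cause was not tested. A fit without 1 library, or with the replicate block, has fewer residual degrees of freedom from which to estimate spread than the main fit. Within 2.5 kb of a gene end lay 9.74% of IFE-only and 6.64% of HF-only regions.

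Whether the replicate numbers mark a pairing cannot be told from 2 pairs. Over the genes tested, the correlation of same-numbered libraries' deviations was 0.18. The mean Jaccard index between an IFE and an HF library was 0.562 for the same replicate number and 0.555 for the other. With the replicate number as a block, limma called 1263 genes longer in IFE and 1410 in HF, 0 common regions in either direction (6052 and 4127 at an unadjusted p under 0.05), and the similarity difference stayed 0.233 with an exact permutation p of 0.5. Unknown depth limits every absence: a region without a peak may be open below the calling threshold.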
